A study of Rattus norvegicus with 24 samples.

Results

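The genes described here encode 10 chains of the network-forming, beaded-filament and fibril-associated collagens: Col6a1, Col6a2, Col6a3, Col8a1, Col8a2, Col12a1, Col14a1, Col15a1, Col16a1 and Col18a1. They were taken by gene symbol, without regard to their values, and are 10 of the 21425 genes in the expression table. All 10 passed the filter on low values in both experiments, which asked for at least 1 CPM in at least 3 libraries. CPM is the deposited unit, the reads of a gene scaled to the total of its library.

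These collagens build little of the thick banded fibre that types I, III and V form. Type VI chains assemble into beaded microfibrils in the matrix around cells, and type VIII chains form a hexagonal sheet found under endothelia and around vessels. Types XII, XIV and XVI belong to, or resemble, the FACITs (fibril-associated collagens with interrupted triple helices), which sit on the surface of other fibrils. Types XV and XVIII are the multiplexins of basement membrane zones, which carry sugar side chains and release endostatin-like fragments. In the testis such matrix surrounds the seminiferous tubules, in the layer made by peritubular myoid cells, and the interstitial vessels and stroma.

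The study grew whole testis cells from wild-type Sprague Dawley rats, taken on postnatal day 5, in a Matrigel matrix and serum-free medium, and measured RNA in 24 libraries. The baseline experiment held freshly isolated cells of the tissue and cultures of 3, 5 and 7 days, with 3 libraries each. These replicates are technical and come from 1 litter, so their p-values measure the spread between preparations and not between animals. The induction experiment held cultures of 3 litters, with hormones added on day 10, collected at 0, 2, 12 and 48 h, each library pooling 3 cultures. Those of 2, 12 and 48 h received 50 mIU/mL luteinizing hormone (LH) and 20 mIU/mL follicle-stimulating hormone (FSH) in fresh medium. Those of 0 h had no added hormone. Libraries without hormone at 2, 12 or 48 h were not analysed here. The effects of the hormones, of the medium change and of time cannot be told apart.

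Depth was 17259939 to 30400440 reads per baseline library and 15793940 to 28298743 per induction library, so that 1 read was worth 0.0329 to 0.0633 CPM. Markers of Sertoli, germ, peritubular myoid and stromal cells were all present in the fresh tissue. In bulk RNA, fewer cells of a type and less RNA per cell cannot be told apart. Levels are not compared between genes, except as ratios whose change within a pair of genes is followed. A gene was called where limma on log2(CPM + 1) gave a Benjamini-Hochberg adjusted p under 0.05 over all genes tested. A log2 fold change on that scale understates the change of a gene near 0 CPM.

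Upstream sequence is shown for 4 members, the type VIII pair and the multiplexin pair, because the members of each pair moved by unequal amounts. Each line gives 250 bases before the start of the gene, 5′ to 3′ on the gene's strand, from RefSeq on the build GRCr8. The windows are chr11:56246532-56246781 for Col8a1, chr5:143870519-143870768 for Col8a2, chr5:66297296-66297545 for Col15a1 and chr20:11473395-11473644 for Col18a1, all on the plus strand. Capitals mark the GC box GGGCGG on either strand, where overlapping copies run together.
Col8a1: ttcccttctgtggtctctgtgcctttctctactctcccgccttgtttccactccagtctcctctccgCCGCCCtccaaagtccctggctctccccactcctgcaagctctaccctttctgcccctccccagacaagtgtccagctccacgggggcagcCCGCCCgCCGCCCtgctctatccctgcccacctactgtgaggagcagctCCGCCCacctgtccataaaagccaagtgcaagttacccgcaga
Col8a2: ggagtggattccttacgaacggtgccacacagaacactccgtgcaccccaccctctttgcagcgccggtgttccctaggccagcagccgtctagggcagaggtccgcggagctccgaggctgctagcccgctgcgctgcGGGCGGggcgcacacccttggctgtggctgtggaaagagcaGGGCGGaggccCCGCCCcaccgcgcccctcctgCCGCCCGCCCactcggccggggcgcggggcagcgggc
Col15a1: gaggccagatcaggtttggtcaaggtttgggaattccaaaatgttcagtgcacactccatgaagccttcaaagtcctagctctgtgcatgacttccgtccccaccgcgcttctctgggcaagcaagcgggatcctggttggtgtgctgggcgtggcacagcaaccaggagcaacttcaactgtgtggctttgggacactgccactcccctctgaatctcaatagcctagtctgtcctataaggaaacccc
Col18a1: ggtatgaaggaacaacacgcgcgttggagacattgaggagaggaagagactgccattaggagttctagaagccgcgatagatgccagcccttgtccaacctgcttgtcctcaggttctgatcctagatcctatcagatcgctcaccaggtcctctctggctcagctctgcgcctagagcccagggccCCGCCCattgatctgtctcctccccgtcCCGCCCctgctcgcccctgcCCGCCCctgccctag
The GC box stood 4 times in the Col8a1 window, 5 times in that of Col8a2 and 3 times in that of Col18a1, and was not found in that of Col15a1. Of 33469 rat promoter windows of this length, 30.5% held at least 1. Such a match describes letters and not a bound site, and no value of the study was read at these coordinates, since the reads were aligned to another build. The promoter table held 7 of the 10 members, without Col6a2, Col12a1 and Col14a1.

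Most of these collagens were higher in culture than in the fresh tissue. By limma, 7 of the 10 were higher at day 3, 6 at day 5 and 7 at day 7, and none was lower. Of all 13055 genes tested, 29.1% were called higher at day 3, 29.6% at day 5 and 28.5% at day 7, and 55.9%, 59.9% and 60% were called in either direction. Lower calls made up 26.8%, 30.3% and 31.4% of all genes at the 3 days. Without overlap between the libraries of culture and tissue, 8 members were higher at day 3, 6 at day 5 and 8 at day 7, beside 34.7%, 32% and 33.8% of all genes. The median log2 fold change of the 10 was 1.81, 1.79 and 2.21 at the 3 days, where all genes tested had medians of 0.02, -0.03 and -0.05. The 3 comparisons share the tissue libraries.

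Col8a1, a chain of the short-chain network collagen, rested on few reads in the fresh tissue and was plentiful in every culture. Col8a1 measured 0.219, 0.229 and 0.461 CPM in the 3 tissue libraries, which rest on 5, 5 and 14 reads. It measured 118, 99.8 and 104 CPM at day 3, 97.4, 97.3 and 124 CPM at day 5, and 95.5, 64.8 and 120.1 CPM at day 7. Every culture library lay far above every tissue library. The log2 fold change was 6.38 ± 0.19 (SE) at day 3, 6.36 at day 5 and 6.14 at day 7 (limma adjusted p = 5.38e-11, 5.76e-11 and 7.15e-11, n = 3 per group). At day 3 its size depended on the added constant, at 4.69 with 4 CPM added and 8.10 with 0.1 CPM. DESeq2 on recovered reads, a different model, gave 8.37.

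Col8a2, its partner chain, rose as well, and was higher at day 7 than at day 3. It measured 9.69, 9.54 and 11.4 CPM in tissue, 36.4, 31.0 and 55.3 at day 3, 38.5, 43.4 and 34.1 at day 5, and 78.8, 61.5 and 94.3 at day 7. Days 3 and 5 overlapped, and day 7 lay above both. Against tissue its log2 fold change was 1.87 ± 0.20 at day 3, 1.82 at day 5 and 2.80 at day 7 (limma adjusted p = 4.05e-06, 4.47e-06 and 7.99e-08). The ratio of Col8a2 to Col8a1 CPM within a library was 24.7 to 44.2 in tissue and 0.31 to 0.53 at day 3, and stood at 0.79 to 0.95 at day 7.

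Between day 3 and day 7 Col8a2 was the only member called, at 0.94 ± 0.20 on the log2 scale (limma adjusted p = 0.0174, n = 3 per group). In that comparison 3.79% of all genes were called and 1.36% were called higher and 2.44% lower at day 7. Without overlap, 6.38% of all genes lay higher at day 7 than at day 3, among them the members Col6a3, Col8a2 and Col12a1. The call was lost when some single libraries were left out. Its limma adjusted p was 0.0875 and 0.0729 without day 3 replicate 1 or 2, and 0.0616 and 0.0951 without day 7 replicate 1 or 3. The log2 fold change was then 0.88, 0.77, 0.92 and 0.79, in that order. Without day 3 replicate 3 it was 1.17 (limma adjusted p = 0.0056).

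**Figure D1:**
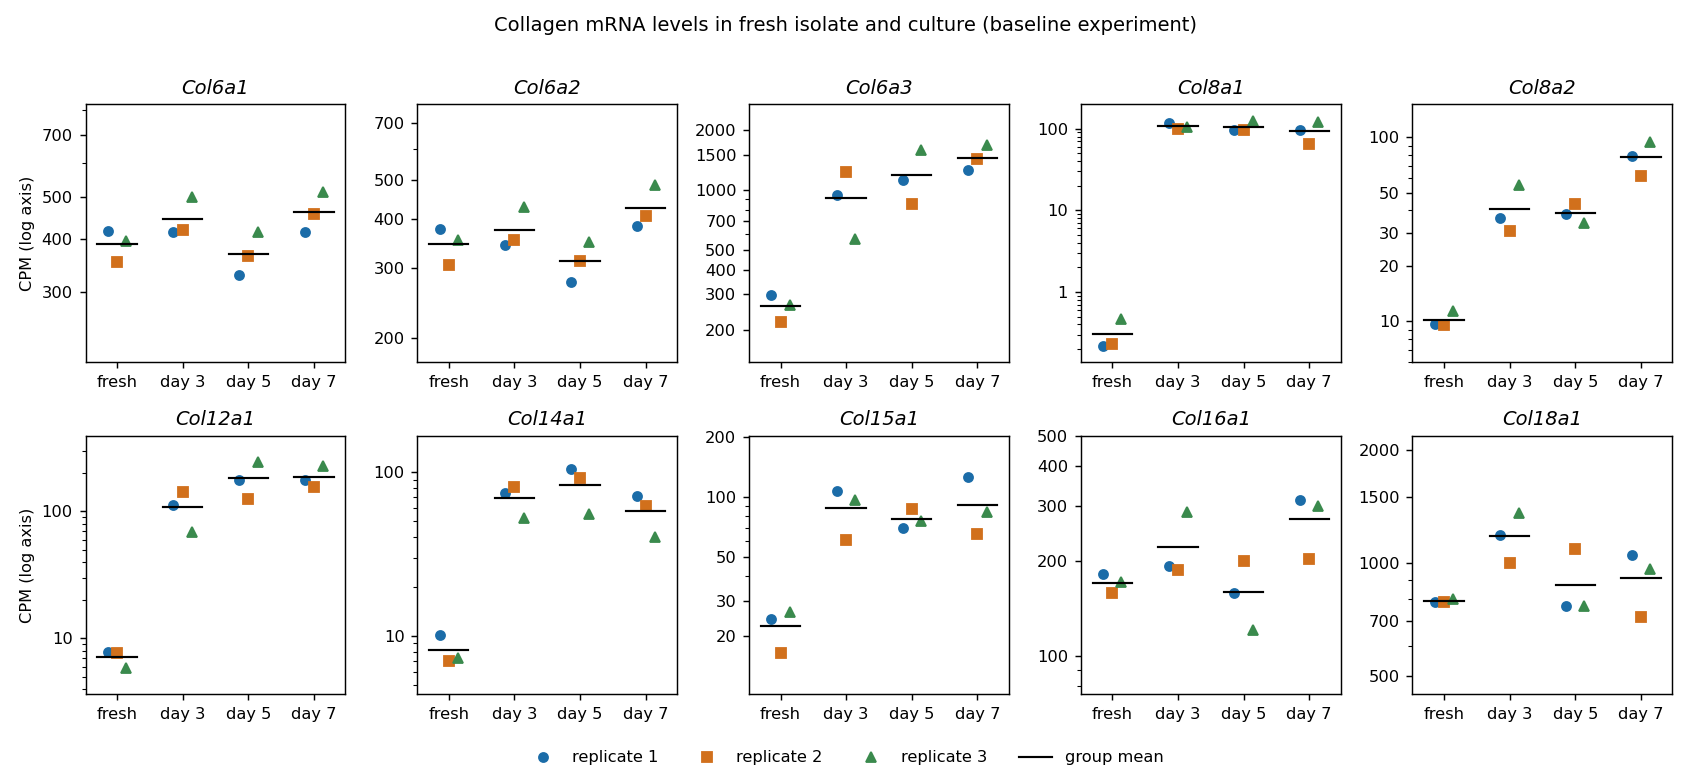
CPM of the 10 collagens in each baseline library (log axis), grouped as fresh tissue and culture days 3, 5 and 7, with points for the 3 technical replicates and bars for group means. Col8a1 and Col12a1 lie far higher in culture, while the groups of Col6a1 overlap.

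Of the beaded-filament chains, Col6a3 was called higher on each culture day and Col6a1 and Col6a2 on none. Col6a1, which joins Col6a2 and Col6a3 in the type VI monomer, measured 417, 353 and 395 CPM in tissue, 415, 419 and 499.6 at day 3, 329, 365 and 414 at day 5, and 415, 456 and 515 at day 7. Its tissue values overlapped those of days 3, 5 and 7. Col6a2 measured 378, 305 and 353 CPM in tissue, 342, 354 and 429 at day 3, 277, 312 and 349 at day 5, and 384, 407 and 487 at day 7. Its day 7 libraries lay just above the tissue. At day 7 the log2 fold change was 0.25 ± 0.12 for Col6a1 and 0.30 ± 0.13 for Col6a2, and neither was called (limma adjusted p = 0.0845 and 0.0574). Col6a2 at day 7 was called by edgeR and DESeq2 on recovered reads (adjusted p = 0.0363 and 0.0289). Col6a1 at day 7 was called by DESeq2 (adjusted p = 0.0457) and not by edgeR. With TMM scaling of the libraries, limma called both Col6a1 and Col6a2 at day 7 (adjusted p = 0.0497 and 0.0355).

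Col6a3, the large chain that gives type VI its large globular end and releases endotrophin, measured 299, 219 and 266 CPM in tissue. It measured 952, 1234 and 569 CPM at day 3, 1131, 853 and 1587 at day 5, and 1256, 1430.25 and 1684 at day 7. All culture libraries lay above all tissue libraries, and the culture days overlapped except that day 7 lay above day 3. The log2 fold change was 1.75 ± 0.26 at day 3, 2.15 at day 5 and 2.48 at day 7 (limma adjusted p = 7.59e-05, 1.14e-05 and 2.83e-06). From day 3 to day 7 it was 0.73 ± 0.26 and was not called (limma adjusted p = 0.172).

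The proportion of the type VI chains was followed as a ratio within each library. That of Col6a3 to Col6a1 CPM was 0.72, 0.62 and 0.67 in the tissue libraries, 2.29, 2.94 and 1.14 at day 3, 3.44, 2.34 and 3.84 at day 5, and 3.02, 3.13 and 3.27 at day 7. The groups of tissue and culture did not overlap on any day. At day 7 the log2 ratio was higher by 2.23 ± 0.07 (SE), with an exact two-sided permutation p of 0.1, the smallest that 3 against 3 libraries allow, and 0.2 adjusted over the 40 ratio tests. The ratio of Col6a2 to Col6a1 was 0.864 to 0.905 in tissue, 0.825 to 0.860 at day 3, 0.843 to 0.857 at day 5 and 0.892 to 0.946 at day 7. Its values at days 3 and 5 lay below the tissue without overlap, by 0.07 and 0.06 on the log2 scale, and at day 7 above day 3 by 0.13 (exact permutation p = 0.1 each, 0.2 adjusted). Once group means were removed, Col6a1 and Col6a2 moved together over the 12 baseline libraries (Pearson r = 0.99). Those 2 genes lie next to each other on the chromosome.

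Libraries differed in long transcripts, and Col6a3 is one. The summed CPM of 11 genes with very long transcripts, such as Huwe1 and Dync1h1, a list chosen after values were seen, was 3002 to 3052 in tissue and 4243 to 4993 at day 7. At day 3 it was 4452, 5099 and 2111, and replicate 3, the low one, was also the lowest of that day for Col6a3. Over the 12 baseline libraries, with group means removed, Col6a3 had r = 0.712 with that sum, Col12a1 0.645 and Col14a1 0.486. The order was not the same in each group. The library with the lowest sum had the lowest Col6a3 at days 3 and 5, and the highest in tissue and at day 7. The other members had negative r with the sum: Col8a2 -0.839, Col16a1 -0.684, Col18a1 -0.598, Col6a2 -0.579, Col6a1 -0.555, Col15a1 -0.353 and Col8a1 -0.104. Without day 3 replicate 3 the log2 fold change of Col6a3 at day 3 was 2.06 (limma adjusted p = 9.26e-06). The part of transcript length in these values was not tested.

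**Figure D2:**
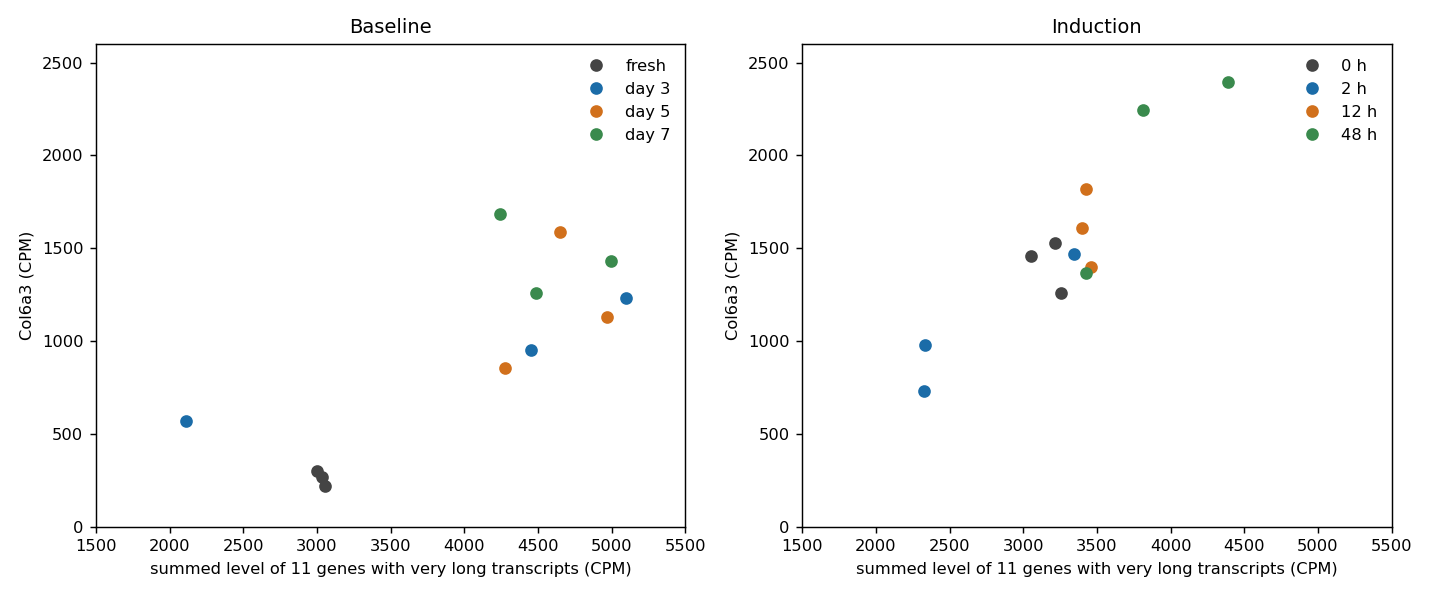
CPM of Col6a3 against the summed CPM of the 11 long-transcript genes, 1 point per library, coloured by group, for the baseline and the induction experiment. Day 3 replicate 3 lies low on both axes.

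Of the fibril-associated collagens, Col12a1 and Col14a1 rose on each culture day and Col16a1 at day 7. Col12a1, whose protein decorates fibrils in stressed connective tissue, measured 7.81, 7.71 and 5.86 CPM in tissue, 113, 143 and 68.3 at day 3, 178, 125 and 245 at day 5, and 175, 156 and 227 at day 7. The tissue lay far below every culture library. Its log2 fold change was 3.69 ± 0.26 at day 3, 4.46 at day 5 and 4.52 at day 7 (limma adjusted p = 1.17e-07, 1.80e-08 and 1.36e-08). Day 7 lay above day 3 without overlap, and that difference of 0.82 ± 0.26 was not called (limma adjusted p = 0.117). DESeq2 on recovered reads called it (adjusted p = 0.0361).

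Col14a1, a close relative that controls early fibril growth, measured 10.1, 7.06 and 7.30 CPM in tissue, 74.6, 81.2 and 52.1 at day 3, 104, 91.7 and 55.3 at day 5, and 71.9, 62.2 and 40.3 at day 7. The culture days overlapped each other and lay above the tissue. Its log2 fold change was 2.93 ± 0.26, 3.18 and 2.67 at the 3 days (limma adjusted p = 6.76e-07, 3.04e-07 and 1.26e-06). The ratio of Col12a1 to Col14a1 was 0.77, 1.09 and 0.80 in tissue and 2.44, 2.51 and 5.63 at day 7.

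Col16a1, a FACIT-like collagen found near microfibrils and basement membranes, measured 182, 159 and 171 CPM in tissue, 193, 187 and 287 at day 3, 158, 199.7 and 121.2 at day 5, and 313, 204 and 300.4 at day 7. It was called at day 7 alone of the 3 days, with 0.65 ± 0.20 on the log2 scale (limma adjusted p = 0.0146). That call was lost without tissue replicate 2 (adjusted p = 0.0508), day 7 replicate 1 (0.0628) or day 7 replicate 3 (0.0575). At day 3 its libraries also lay above the tissue, and the log2 fold change of 0.35 was not called (limma adjusted p = 0.158).

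Of the multiplexins, Col15a1 rose on each culture day and Col18a1 at day 3. Col15a1, a chain of vessel and muscle basement membranes, measured 24.5, 16.5 and 26.5 CPM in tissue, 107, 60.8 and 95.8 at day 3, 70.0, 86.4 and 75.3 at day 5, and 126, 64.9 and 83.5 at day 7. The culture days overlapped each other and stood clear of the tissue. Its log2 fold change was 1.91 ± 0.25, 1.76 and 1.95 at the 3 days (limma adjusted p = 2.41e-05, 4.30e-05 and 1.61e-05). Col18a1, the source of endostatin, measured 786, 789 and 802 CPM in tissue, 1185, 996 and 1361 at day 3, 768, 1087 and 766 at day 5, and 1052, 716 and 961 at day 7. At day 3 it was called, at 0.56 ± 0.17 on the log2 scale (limma adjusted p = 0.0113). At days 5 and 7 it overlapped the tissue, at 0.12 and 0.18 on the log2 scale (limma adjusted p = 0.550 and 0.368).

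**Figure D3:**
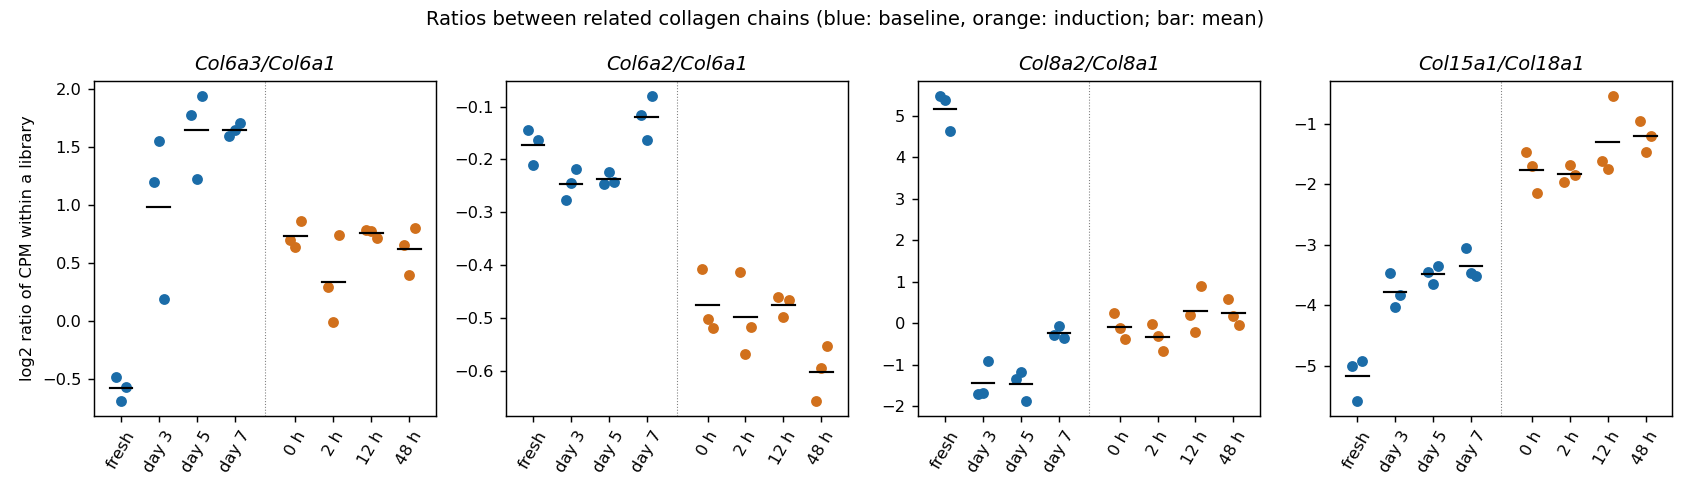
The y axis gives the log2 ratio of CPM within each library for pairs of collagen chains, 1 point per library with bars for group means, across the 8 groups on the x axis. Col6a3 to Col6a1 is higher and Col8a2 to Col8a1 lower in the baseline cultures than in fresh tissue.

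In the baseline experiment the pattern of Col8a1, the member whose group means ranged most, was shared most closely by A3galt2, Cdk14 and Adam23, with Pearson r of 0.998, 0.997 and 0.996 over 12 libraries among 11148 genes. A3galt2 averaged 1.18 CPM in tissue and 31.7 at day 3. Cdk14 averaged 23.5 and 89.5, and Adam23 averaged 13.5 and 147. The likeness was measured over libraries that share the step from tissue to culture.

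Other non-fibrillar collagens did not follow a single direction. Of 10 tested, 3 rose and 4 fell at day 3, 2 rose and 5 fell at day 5, and 1 rose and 2 fell at day 7. Of all genes tested, 29.1%, 29.6% and 28.5% were called higher at the 3 days, and 26.8%, 30.3% and 31.4% lower. Col6a6, a further type VI chain, averaged 32.2 CPM in tissue and 3.07 at day 3, which is -3.03 ± 0.21 on the log2 scale at day 3, and -3.16 at day 7 (limma adjusted p = 1.03e-07 and 5.30e-08). At day 3 the next in size were Col25a1 and Col17a1, and both rose, by 1.34 and 1.10. Both stayed at low levels, averaging 1.36 and 0.892 CPM in tissue and 5.03 and 3.08 CPM at day 3. Col6a4, picked out after its values were seen, averaged 28.0 CPM in tissue and 1.503 at day 3, a change of -3.52 ± 0.44 (limma adjusted p = 1.59e-05). Of the type VI chains named here, Col6a3 was higher at day 3, and Col6a6 and the later-picked Col6a4 were lower. Col6a1 and Col6a2 were not called on any culture day in the main fit.

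Genes that modify and export collagen chains mostly rose. Of 22 tested, 14 rose and 3 fell at day 3, 13 rose and 3 fell at day 5, and 16 rose and 1 fell at day 7. The shares of all genes called at these days were 29.1%, 29.6% and 28.5% higher and 26.8%, 30.3% and 31.4% lower. The largest changes were in P4ha3 and P3h2, prolyl hydroxylases of the chains, and Creb3l1, a regulator of secretory genes, with log2 fold changes of 2.63, 2.09 and 1.97 at day 3 and 3.22, 2.19 and 2.65 at day 7. Of 6 procollagen processing genes 4 rose and 2 fell at days 3 and 5, and 4 rose and 1 fell at day 7. At day 3 Pcolce, an enhancer of C-propeptide removal, and Adamts2, an N-propeptidase, rose by 2.19 and 2.06, and Adamts14 fell by 0.92 on the log2 scale.

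Of 10 collagen receptors, 6 rose at day 3 and 7 at days 5 and 7, and none fell by limma. Among all genes 29.1%, 29.6% and 28.5% were called higher at days 3, 5 and 7, and 26.8%, 30.3% and 31.4% lower. Itga1, Itga11 and Itga2, collagen-binding integrin chains, had log2 fold changes of 2.65, 2.40 and 1.94 at day 3. Of 9 matrix partners of these collagens, 7 rose and none fell at day 3, 5 rose and 2 fell at day 5, and 5 rose and 1 fell at day 7. Bgn, a proteoglycan that binds type VI collagen, rose by 2.71 at day 3 and 3.23 at day 7, and Fn1 by 2.59 and 2.89. Vwa1, a type VI partner, rose by 2.18 at day 7, and Matn4 by 1.21 at day 3.

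Marker sums of the cell types rose in culture in some cases and fell in others. The summed CPM of the 7 peritubular myoid markers was 1348 to 1517 in tissue and 4004 to 4772 at day 7, and 6 of 7 were higher on each culture day. The mesothelial sum was 0.789 to 1.61 in tissue and 114 to 133 at day 3, with both tested markers higher on each day. Nearly all of that sum was Lrrn4, which averaged 0.448 CPM in tissue and 115 at day 3. The other tested marker besides Lrrn4 was Upk1b, also called higher on each culture day. Msln and Upk3b averaged 0.264 and 0.0790 CPM at day 3 and did not pass the filter, and Upk3b was at 0 at day 5. The fibroblast sum was 496 to 578 in tissue and 646 to 973 at day 7, with 3 of 6 higher. The Sertoli sum was 943 to 999 in tissue and 2758 to 3095 at day 3. The endothelial sum was 87.2 to 104 in tissue and 134 to 164 at day 3, with 1 of 3 tested markers higher, Kdr (8.95 and 47.8 CPM on average), 1 lower, Tek (2.04 and 0.445), and Cdh5 not called. Emcn was at 0 at day 7. The Leydig sum was 82.0 to 86.5 in tissue and 32.9 to 48.3 at day 3, with 1 of 5 tested markers higher and 3 lower, and the macrophage sum was 46.6 to 57.6 and 23.5 to 33.4, with 1 of 5 higher and 2 lower. The germ cell sum was 206 to 224 in tissue and 8.04 to 24.2 at day 3, with 5 of 5 markers lower. Beside these marker counts, 29.1%, 29.6% and 28.5% of all genes were called higher at days 3, 5 and 7, and 26.8%, 30.3% and 31.4% lower. The part of these cell types in the collagen values was not tested.

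**Figure D4:**
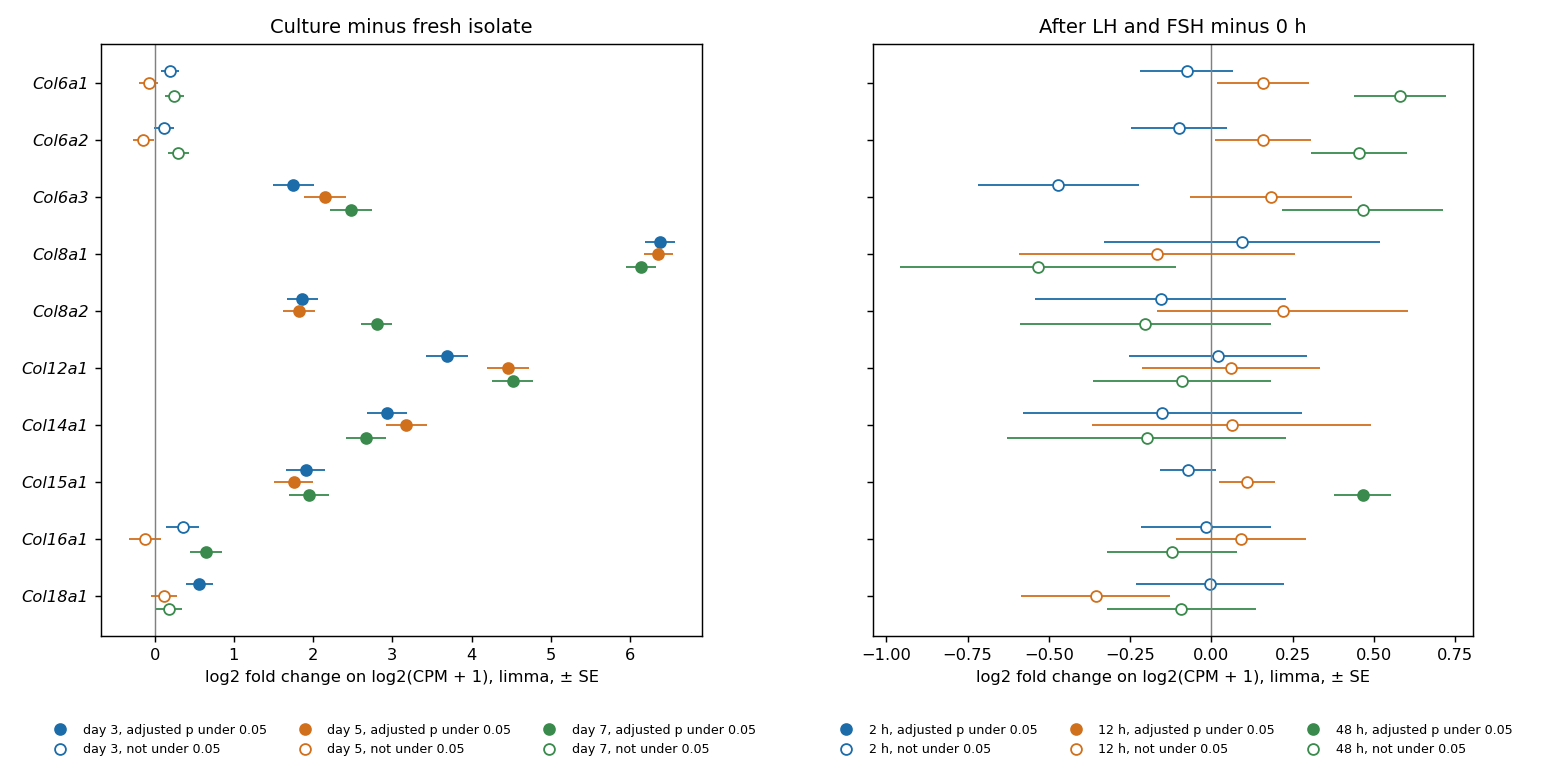
Log2 fold changes of the 10 collagens (limma, log2(CPM + 1)) for culture days 3, 5 and 7 against fresh tissue (left) and 2, 12 and 48 h against 0 h (right), with bars for the standard error, filled points for calls at an adjusted p under 0.05 and a separate x axis in each panel. The culture changes run up to 6.38, and those at 48 h after hormone addition up to 0.58.

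After the hormones were added to the 10-day cultures, most of these collagens did not pass the test. By limma, none of the 10 was called at 2 h or 12 h, and Col15a1 alone was called at 48 h against 0 h, where 0.394% of 12450 genes tested were called, 0.345% were called higher and 0.0482% lower. At 2 h and 12 h no gene of the table was called by limma (0%), with 1327 and 311 genes at an unadjusted p under 0.05. By edgeR 6 and 0 genes were called at those times, and by DESeq2 377 and 9. An unadjusted p under 0.05 was reached by 0 members at 2 h, 0 at 12 h and 3 at 48 h, where 1614 of the 12450 genes tested reached it. Between 48 h and 12 h no member and no gene was called by limma (0%), with 2 members and 846 genes at an unadjusted p under 0.05, 0 genes by edgeR and 85 by DESeq2. By edgeR on recovered reads no member was called in any of the 4 comparisons. DESeq2 called 0 members at 2 h and 12 h, 2 at 48 h against 0 h and 1 at 48 h against 12 h. None of these fits held litter as a term. With litter as a block, limma called 77 genes at 2 h, 0 at 12 h, 541 at 48 h and 89 between 48 h and 12 h. That fit called 3 members at 48 h against 0 h and 0 in each other comparison of this experiment.

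Col15a1 measured 309.96, 306 and 253 CPM at 0 h in litters 1, 2 and 3, 266, 281 and 276 at 2 h, 291, 309 and 336 at 12 h, and 418, 399.9 and 378 at 48 h. All 3 litters at 48 h lay above all libraries of the other times. Without overlap, 8.35% of all genes lay higher at 48 h against 0 h alone, and 7.42% against 12 h alone. The log2 fold change from 0 h was 0.46 ± 0.09, higher in 3 of 3 litters (limma adjusted p = 0.0471). The call was lost in 11 of 14 alternatives, including the removal of any of the 6 libraries, with adjusted p of 0.0501 to 0.264. Over the 14 alternatives the log2 fold change was 0.37 to 0.52. With litter as a block the adjusted p was 0.0138.

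Col6a1 measured 895, 809 and 840.4 CPM at 0 h, 799, 736 and 882 at 2 h, 935, 815 and 1110.3 at 12 h, and 1519, 1041 and 1285 at 48 h. The 48 h libraries lay above those of 0 h and 2 h, while litter 2 lay below the highest 12 h library. Col6a2 measured 675, 572 and 587 CPM at 0 h, 600.3, 497 and 617 at 2 h, 679.9, 577 and 804 at 12 h, and 964, 689 and 876 at 48 h. Its 48 h libraries also lay above those of 0 h. The log2 fold changes at 48 h were 0.58 ± 0.14 and 0.45 ± 0.15, higher in 3 of 3 litters each, and neither was called (limma adjusted p = 0.126 and 0.240). The ratio of Col6a2 to Col6a1 was 0.698 to 0.754 at 0 h and 0.635 to 0.682 at 48 h, lower by 0.13 on the log2 scale without overlap (exact permutation p = 0.1, 0.2 adjusted). With litter as a block both were called (adjusted p = 0.0116 and 0.0177), so that 3 members were called at 48 h, where 541 genes of the table were called in place of 49.

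Col6a3 measured 1456, 1258 and 1527 CPM at 0 h, 977, 730.5 and 1471 at 2 h, 1608, 1399.97 and 1822 at 12 h, and 2393, 1369 and 2246 at 48 h. Litter 2 was the lowest at each time. Its change of 0.46 ± 0.25 at 48 h, higher in 3 of 3 litters, and of -0.47 ± 0.25 at 2 h, lower in 3 of 3, were not called (limma adjusted p = 0.460 and 0.559). The long-transcript sum was 3055 to 3255 at 0 h, 2334, 2329 and 3347 at 2 h, and 4392, 3424 and 3816 at 48 h in litters 1 to 3. Over the 12 induction libraries, with group means removed, it had r = 0.81 with Col6a3, and its part in the result was not tested. The genes most like Col6a3 in this experiment were Lrp1, Syne1 and Hspg2, with r of 0.987, 0.981 and 0.977 over 12 libraries among 10636 genes, and all 3 encode very large proteins.

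Neither type VIII chain was called at any time after hormone addition. Col8a1 measured 129.5, 80.4 and 216 CPM at 0 h, 153, 79.3 and 225 at 2 h, 136, 119 and 98.1 at 12 h, and 71.0, 66.8 and 155 at 48 h. The 4 times overlapped, and the 48 h value was lower than that of 0 h in 3 of 3 litters, at -0.53 ± 0.42 on the log2 scale (limma adjusted p = 0.624). Col8a2 measured 152, 74.1 and 166 CPM at 0 h, 151, 63.7 and 141 at 2 h, 157, 103 and 184 at 12 h, and 107, 75.8 and 151 at 48 h. Litter 2 was the lowest at 4 of 4 times.

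None of the fibril-associated collagens was called at any of these times by limma. Col12a1 measured 96.2, 84.3 and 139 CPM at 0 h, 107, 66.3 and 167 at 2 h, 126, 102 and 99.3 at 12 h, and 101, 84.3 and 109.5 at 48 h. Col14a1 measured 32.2, 25.3 and 8.21 CPM at 0 h, 15.6, 24.5 and 12.9 at 2 h, 20.5, 16.3 and 23.7 at 12 h, and 26.4, 14.6 and 11.5 at 48 h. Col16a1 measured 514, 357 and 536 CPM at 0 h, 511, 359 and 518 at 2 h, 529.7, 405 and 554 at 12 h, and 399.7, 363 and 528 at 48 h. In Col16a1 the libraries of litter 2 were the lowest at each time, while Col14a1 had its lowest library in litter 3 at 0 h. Col18a1, the other multiplexin, measured 853, 997 and 1124 CPM at 0 h, 1045, 905 and 999.5 at 2 h, 892, 1039.6 and 491 at 12 h, and 816, 1109.9 and 869 at 48 h. Its litter 3 library at 12 h was the lowest, 1.19 below that litter's 0 h value on the log2 scale.

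**Figure D5:**
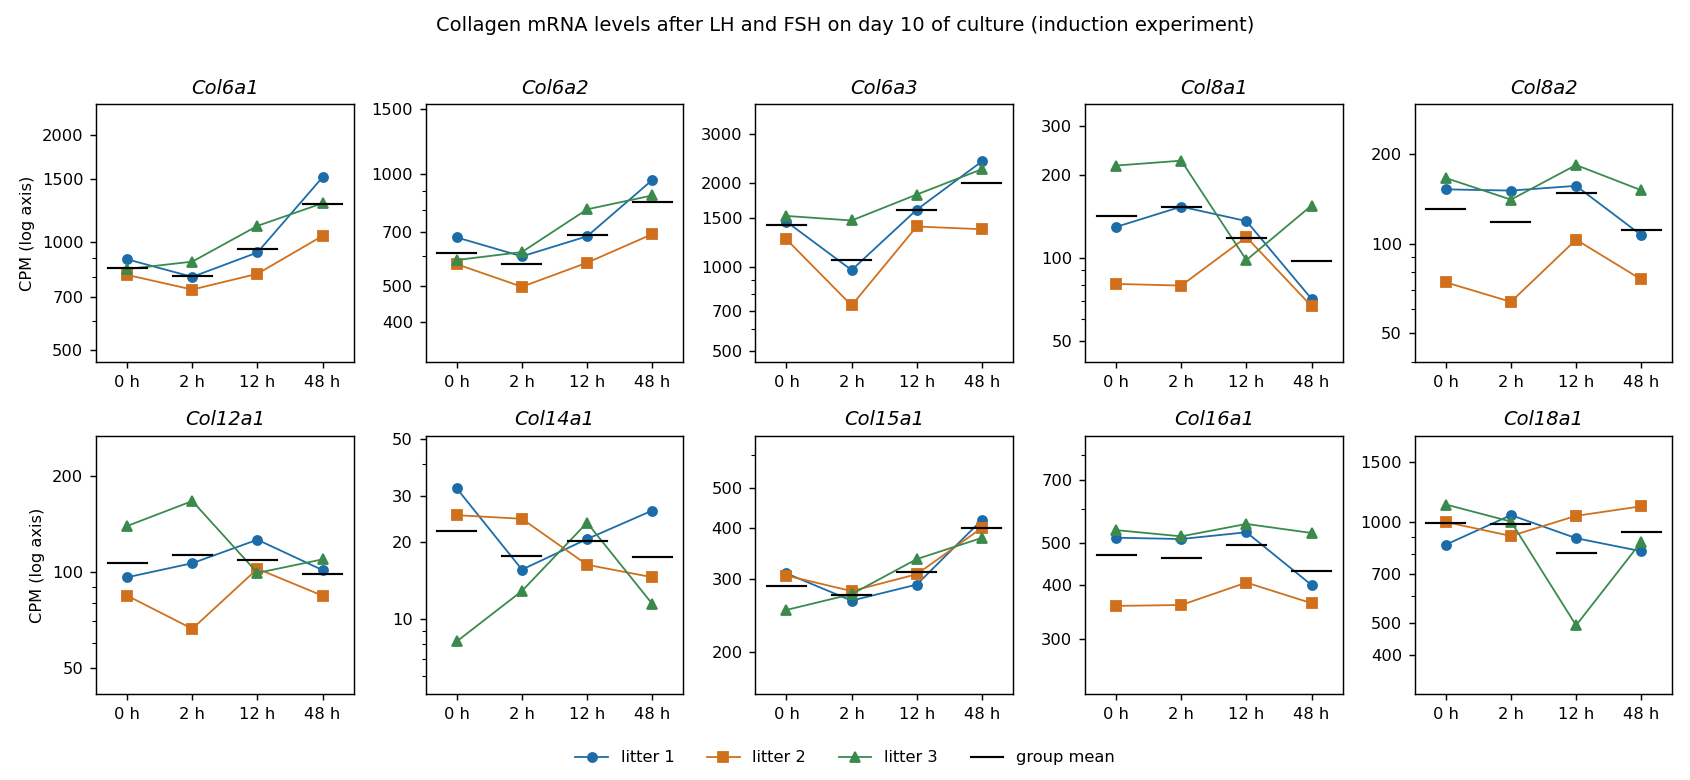
CPM of the 10 collagens at 0 h, without hormone, and at 2, 12 and 48 h after hormone addition (log axis), with points joined by litter and bars for group means. Col15a1, Col6a1, Col6a2 and Col6a3 end higher at 48 h than at 0 h in all 3 litters, and litter 2 runs lowest for Col8a2 and Col16a1.

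Several members differed between litters. With litter as a term beside time, limma's F test called 5 of the 10 for litter (Benjamini-Hochberg over all genes), where 23.3% of all genes were called. The smallest adjusted p were those of Col8a2 (3.21e-04) and Col16a1 (0.00112), followed by Col6a3 (0.0136), Col6a2 (0.0191) and Col8a1 (0.0428). Col8a2 averaged 142, 79.2 and 161 CPM in litters 1, 2 and 3, and Col16a1 averaged 489, 371 and 534. Both moved together, with r = 0.98 over the 12 libraries once time means were removed. Col15a1, the member called over time, was not called for litter (limma adjusted p = 0.733).

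The collagen modification, processing, receptor and partner lists and the list of other non-fibrillar collagens had 0 members called by limma at 48 h. An unadjusted p under 0.05 was reached at 48 h by 1 of 22 modification genes, 0 of 6 processing genes, 1 of 10 receptors, 2 of 9 matrix partners and 1 of 10 other non-fibrillar collagens, beside 1614 of 12450 genes tested. With litter as a block 1 modification gene was called higher and 1 lower, and 1 receptor, 1 partner and 1 other non-fibrillar collagen were called higher. The fibroblast marker sum was 824 to 943 CPM at 0 h and 1026 to 1506 at 48 h, while the myoid sum was 4100.3 to 4544 and 3887 to 4693. The macrophage sum was 20.4 to 59.3 at 0 h and 21.8 to 130 at 48 h. The part of these cell types in the rise of Col15a1 was not tested.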

How the data were processed

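Per the labels' protocols, poly-T selected RNA was made into non-directional libraries and sequenced on a NovaSeq instrument. Alignment was by STAR to mRatBN7.2, per the submitters' processing notes. Which tool and annotation gave the counts is not given in the sources used here. The authors deposited CPM values, reads per gene per library total, for 21425 genes, and 2.93 to 4.71% of reads lay outside the listed genes. All values were whole multiples of 1 read to within 0.01 read, so reads were recovered for edgeR 4.0.16 and DESeq2 1.42.0.

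Each experiment was fitted by itself on log2(CPM + 1) with limma 3.58.1 under R 4.3.3, with group as the only term, on genes with at least 1 CPM in at least 3 libraries (13055 baseline, 12450 induction). Benjamini-Hochberg adjustment of two-sided p-values was made in each of 8 comparisons, and standard errors of the log2 fold changes come from limma. Those of the chain ratios come from the variance of the 3 libraries in each group. The ratio p-values were adjusted over all 40 ratio tests. The procedure was tested on simulated data. The members and lists were chosen with earlier results of these data known. All 10 members are named. From each list up to 3 called genes per comparison are named by size of change, and the 3 genes with the most similar pattern.

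The labels give the litters of the induction libraries. With group means removed, 18 same-litter pairs correlated across genes at a median of 0.482 (-0.0119 to 0.747), 16 above 0.1, so litter was also fitted as a block. Other alternatives were added constants of 0.1 and 4 CPM, no filter, a filter of 5 CPM, TMM scaling, edgeR, DESeq2 and each library left out. The long-transcript list, the chain ratios and the litter test were added after values were seen. Libraries are unstranded, so a gene and an overlapping antisense gene cannot be told apart; Col6a3, Col15a1, Col16a1 and Col18a1 overlap long non-coding genes in RefSeq GRCr8. Spread between replicate pairs was 6.15 to 72.0 times counting error.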

Additional observations from a re-analysis of the deposited data

How the results depend on the processing

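Over 14 alternatives, 1120 values of the 10 members were recomputed: 1089 kept their side of the threshold, 18 lost the call and 13 gained one. The sign changed in 42 of them, spread over 22 of the 80 member values, none of which was called; 0 called values reversed. Of 22 calls 19 were kept in all alternatives; the others were Col16a1 at day 7, Col8a2 between days 3 and 7 and Col15a1 at 48 h. At 48 h against 0 h the count of 1 member became 0 with a constant of 0.1 or 4 CPM, with no filter, with a 5 CPM filter and in edgeR, 2 in DESeq2, 3 with litter as a replicate block, and 0 to 0 when a library was left out. Between days 3 and 7 it was 2 in DESeq2 and 0 to 1 when a library was left out. At day 7 against tissue TMM scaling added Col6a1 and Col6a2, and the count was 8 in edgeR and 9 in DESeq2. It was 6 to 8 there when a library was left out. At 48 h against 12 h it was 1 in DESeq2. Over all genes the 49 calls at 48 h became 541 with the block, 419 in DESeq2 and 14 with no filter. At 2 h 0 calls became 77 with the block, 377 in DESeq2 and 6 with TMM or edgeR, and at 12 h 9 in DESeq2. At 48 h against 12 h 0 became 89 with the block and 85 in DESeq2, and between days 3 and 7 495 became 802 in DESeq2. In the baseline experiment, 18 same-numbered pairs had a median correlation of -0.000715 (-0.349 to 0.344), 5 above 0.1, so the replicate numbers showed no pairing. These numbers do not follow the codes in the library names, and pairing by those codes was not tested. With a replicate block 8 members were called at day 7 (7 without). Depth limits only Col8a1 in tissue, at 5 to 14 reads.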
